A study of Homo sapiens with 18 samples.

Results

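The experiment described here set 22Rv1 cells that overexpress ONECUT2 against 22Rv1 control cells. Its members were chosen by sample title, 3 arrays of overexpression and 3 of control, which are 6 of the 18 arrays of the series. All genes with a usable probe set were read, so 12159 of the 19775 genes on the array were tested. Each gene was read by 1 probe set, and it was tested where that probe set exceeded a log2 value of 4, taken as background, on 3 or more of the 18 arrays. 22Rv1 is an established epithelial line from a human prostate carcinoma xenograft that relapsed after castration. The overexpression cells carried the full-length ONECUT2 coding cDNA with an epitope tag in a lentiviral vector and were selected in puromycin to a stable line. The labels give the treatment of the control cells as vehicle and name no vector for them, and both groups grew in RPMI-1640 medium with serum and antibiotics. In this comparison ONECUT2 itself cannot be told apart from the vector, the selection or the making of the line. Whether the stable line was a pool or 1 clone, and which promoter drove the cDNA are not given in the labels. Another 6 arrays of 22Rv1 cells, labelled scramble shRNA and ONECUT2 shRNA, served for the estimate of spread and as values to set beside the comparison. The remaining 6 arrays were LNCaP cells, a line from a lymph node metastasis, as control and with ONECUT2 overexpression. Nothing in the labels shows that replicate arrays stem from separate cultures. The p-values below therefore set a difference against the variation among these arrays, part or all of which may be technical.

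ONECUT2 is a transcription factor with a cut domain and a homeodomain, and its relatives bind DNA at short cores such as ATCGAT or ATTGAT. The family is known from liver, pancreas, gut and neuron development. In prostate cancer ONECUT2 has been studied in tumours that no longer depend on androgen signalling and in tumours with neuroendocrine features. Prostate luminal cells, from which such lines derive, depend on the androgen receptor and on factors such as FOXA1 for secretory genes, the kallikreins among them.

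ONECUT2 itself was read by 5 probe sets, and the sources used here do not say which of them lie within the introduced cDNA. Probe set 230271_at read 7.22, 7.23 and 7.15 on the control arrays and 8.28, 8.23 and 8.57 on the overexpression arrays. All overexpression arrays lay above all controls (log2 difference 1.16 ± 0.13 SE, limma adjusted p = 6.50e-07). Probe set 207676_at read 3.05, 3.44 and 3.25 on the control arrays, all under background, and 4.78, 4.14 and 4.21 with overexpression (adjusted p = 5.94e-06). Probe set 239911_at, which stands for the gene below, read 8.23, 8.15 and 8.25 in control and 8.59, 8.81 and 8.85 with overexpression. It rose by 0.54 ± 0.15 (adjusted p = 0.00866 over all probe sets, as for the others here, and 0.00581 over the genes tested). That rise was smaller than at 230271_at, and 239911_at was already well above background in control. Probe set 233446_at went the other way, from 5.04, 5.48 and 5.75 to 4.70, 4.35 and 4.32 (-0.97 ± 0.21, adjusted p = 0.00117), and 233441_at stayed under background on all 6 arrays. The arrays labelled scramble shRNA read lowest at 239911_at, with 6.63, 6.71 and 7.08, and those labelled ONECUT2 shRNA had a mean of 8.86, above the control mean of 8.21. That order goes against these labels, so both groups are named by label only and no effect of the shRNA is drawn from them.

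**Figure D1:**
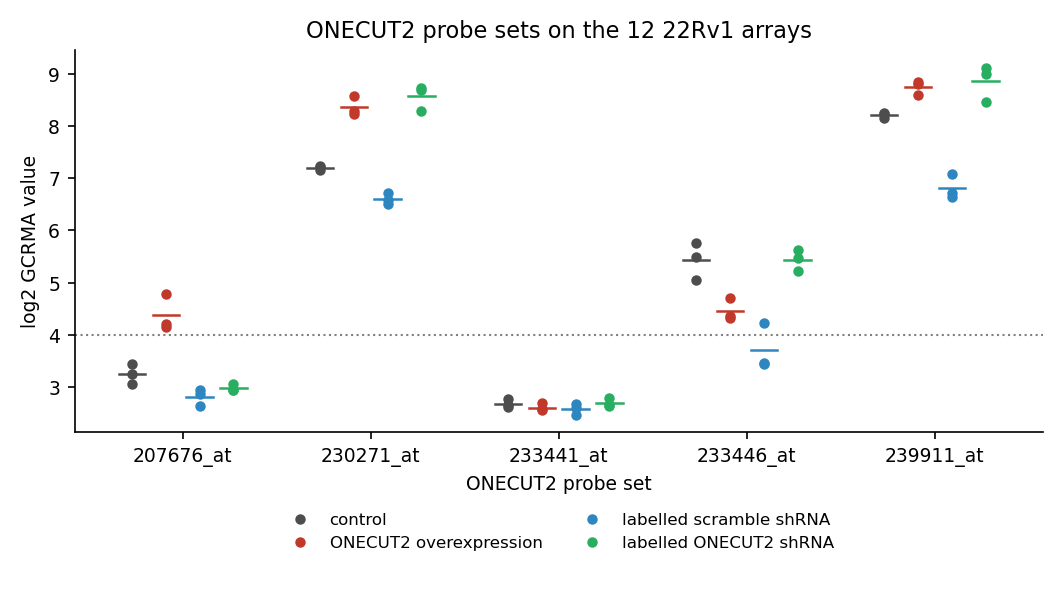
Log2 GCRMA value (vertical axis) of the 5 ONECUT2 probe sets (horizontal axis) on each of the 12 arrays of 22Rv1. Points are arrays, short lines are group means of 3 arrays and the dotted line marks the background value of 4. 3 probe sets are higher with overexpression than in control, 233446_at is lower, and the arrays labelled scramble shRNA are the lowest group at 230271_at, 233446_at and 239911_at.

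Line markers set the overexpression arrays apart from LNCaP, though many were lower than in control. Genes that tell the lines apart were taken from arrays outside the comparison, as those above 8 on all 6 arrays labelled scramble or ONECUT2 shRNA and under 4 on all LNCaP controls, or the reverse. All 69 genes of the 22Rv1 kind stayed above 4 on all 3 overexpression arrays. Of these, 43 were called lower (62.3%, against 29.7% of all genes) and 13 higher, and their median level was 9.98 in control and 9.43 with overexpression. Of the 19 genes of the LNCaP kind, 17 stayed under 4 on all 3. The other two of the LNCaP kind were JAG1, described below, and ZNF883, named after its values were seen, which read 5.06, 5.01 and 4.72 with overexpression and 4.58, 4.29 and 4.53 in control. The median of an array was 3.26 to 3.34, with 38.3% to 40.0% of its probe sets above 4. Over all probe sets, arrays of one group correlated at 0.997 in both groups, and overexpression with control arrays at 0.970 to 0.972. The platform's control probe sets differed between the groups. The 3' minus 5' difference of beta-actin, a sign of RNA integrity or labelling length, was 3.82, 4.58 and 3.94 in control and 7.28, 8.65 and 8.24 with overexpression. The groups did not overlap, with a difference of 3.94 in log2 (exact two-sided permutation p = 0.1, the smallest that 3 against 3 arrays allow). With the middle probe set of beta-actin in place of the 5' one the difference was 1.01. The same measure of GAPDH differed by 0.26. The 5' ribosomal RNA probe set fell from a mean of 8.93 to 5.50, and the middle and 3' ones changed by -3.80 and -1.73. Ribosomal RNA was thus lower at all 3 positions. The arrays labelled scramble shRNA were also below control, with 7.47, 7.66 and 7.28 at the 5' probe set and 5.98, 5.85 and 5.87 at the 3' one. The part of RNA integrity in the changes below was not tested. In such bulk samples, fewer cells of a kind and less RNA per cell cannot be told apart.

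Most measured genes differed between the groups. At an adjusted p under 0.05, 8751 of 12159 genes were called (72.0%), with 5137 higher (42.2%) and 3614 lower (29.7%) with overexpression. A change of 2-fold or more was called for 2919 genes (24.0%), of which 1808 were higher (14.9% of those tested) and 1111 lower (9.14%). With all probe sets of a gene averaged, 1899 genes were called at 2-fold or more. The 3 overexpression arrays lay entirely above or below the 3 controls for 9329 genes (76.7%). These shares are the background for each group of genes below, as is the median log2 change over all genes, which was 0.10. A lack of overlap, given for single genes below, was thus common and does not mark a gene out. The largest rises and falls were named only where the groups did not overlap, so for them it adds no support. The calls include 102 higher and 122 lower genes whose means were under 4 in both groups, where values have no order, so these are not measured changes. Of the list counts below, the histone and Wnt lists include 3 such genes each, the recombination list 2 and any other list at most 1. The lower and upper quartiles of the log2 change over all genes were -0.35 and 0.64. Changes over 5 in log2 were called for 13 genes that rose and for 1 that fell, GJA1. The 110 genes that entered the test through the overexpression arrays alone were all called, since the filter could keep them only where they differed. They stay in the counts of calls above. Genes given below as rising from background may be among them, and which of them are is not listed here. For all genes whose controls were under background, the adjusted p below is therefore given as output of the fit and not as support. Of all called genes, 4044 had further probe sets, and for 2018 of them (49.9%) all of these were called the same way. At least 1 was called the opposite way for 527 (13.0%), and none was called for 983 (24.3%). Of the 1234 genes called at 2-fold or more that had further probe sets, all further probe sets were called the same way for 857 (69.4%) and at least 1 was called the opposite way for 60 (4.86%). That held for 433 of the 693 that rose (62.5%) and 424 of the 541 that fell (78.4%).

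**Figure D2:**
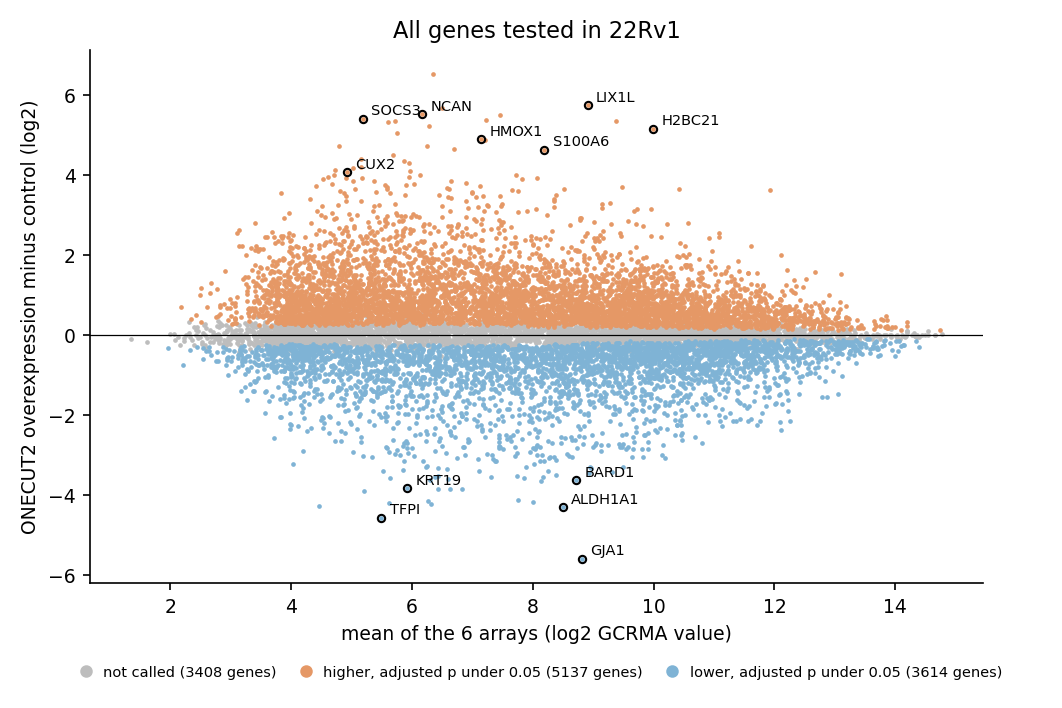
Change of every tested gene in 22Rv1. Each point is a gene, the horizontal axis is the mean log2 GCRMA value of the 6 arrays and the vertical axis the log2 difference, overexpression minus control. Of 12159 genes 5137 were called higher and 3614 lower, LIX1L and NCAN are among the highest points, and GJA1 is the lowest.

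Several of the largest rises went from background to readily measured levels. Where all 3 arrays of the lower group were under background, the change is given as at least the fold between the mean of the higher group and the background value, with the adjusted p of the fit. NCAN, the brain matrix proteoglycan neurocan, read 3.47, 3.42 and 3.37 in control and 9.01, 8.74 and 9.03 with overexpression, at least 30.5-fold higher (adjusted p = 2.81e-14). CA6, a secreted carbonic anhydrase, read 3.08, 2.74 and 3.03 in control and 8.38, 8.18 and 8.24 with overexpression, at least 19.3-fold higher (adjusted p = 1.95e-13). Both genes also stayed under 4 in the mean of the arrays labelled scramble shRNA (3.45 and 2.98) and of those labelled ONECUT2 shRNA (3.58 and 2.91). In all, 15 genes were under 4 on every control array and over 7 on every overexpression array, and 2 showed the reverse. The 15 included GALNT16, an enzyme of mucin-type glycosylation (at least 9.8-fold higher), ABCA1, a cholesterol exporter (at least 10.8-fold), CERK, which phosphorylates ceramide (at least 10.5-fold), and SLC22A17, a receptor for lipocalin (at least 16.4-fold). The 2 genes that went below background were TFPI, the inhibitor of tissue factor (7.98, 7.91 and 7.46 in control, 3.53, 2.62 and 3.47 with overexpression), and AVPR1A, a vasopressin receptor (7.91, 7.52 and 7.79, then 3.49, 3.52 and 3.53).

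GAD1, which makes the transmitter GABA, read 2.89, 2.63 and 2.52 in control and 7.46, 6.65 and 6.27 with overexpression, at least 6.92-fold higher, with 1 overexpression array above the other two. S100A6 and LIX1L rose from a measured level. S100A6, a calcium-binding protein, had a mean of 5.88 in control and read 10.57, 10.48 and 10.47 with overexpression, and LIX1L read 6.14, 5.90 and 6.08 and 11.88, 11.81 and 11.64. Their rises were 4.62 ± 0.14 and 5.74 ± 0.15 in log2. Among the falls, MB, which encodes myoglobin, fell by 3.59 ± 0.10 in log2 (adjusted p = 5.44e-13) and BCHE, butyrylcholinesterase, by 3.65 ± 0.13. INPP4B, a phosphoinositide phosphatase, read 7.44, 7.32 and 7.49 in control and 3.69, 3.66 and 4.15 with overexpression, where 2 arrays were under background. FABP7, a fatty acid carrier of glia, was at least 8.95-fold lower, and SCARA3, a scavenger receptor, 14.6-fold lower. CYP2C8, a liver cytochrome, read 8.78, 8.31 and 8.58 in control and 4.50, 5.03 and 4.55 with overexpression, a fall of 14.6-fold. Its mean was 4.44 on the arrays labelled scramble shRNA, below the overexpression mean of 4.69, and 9.03 on those labelled ONECUT2 shRNA, above the control mean of 8.56.

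**Figure D3:**
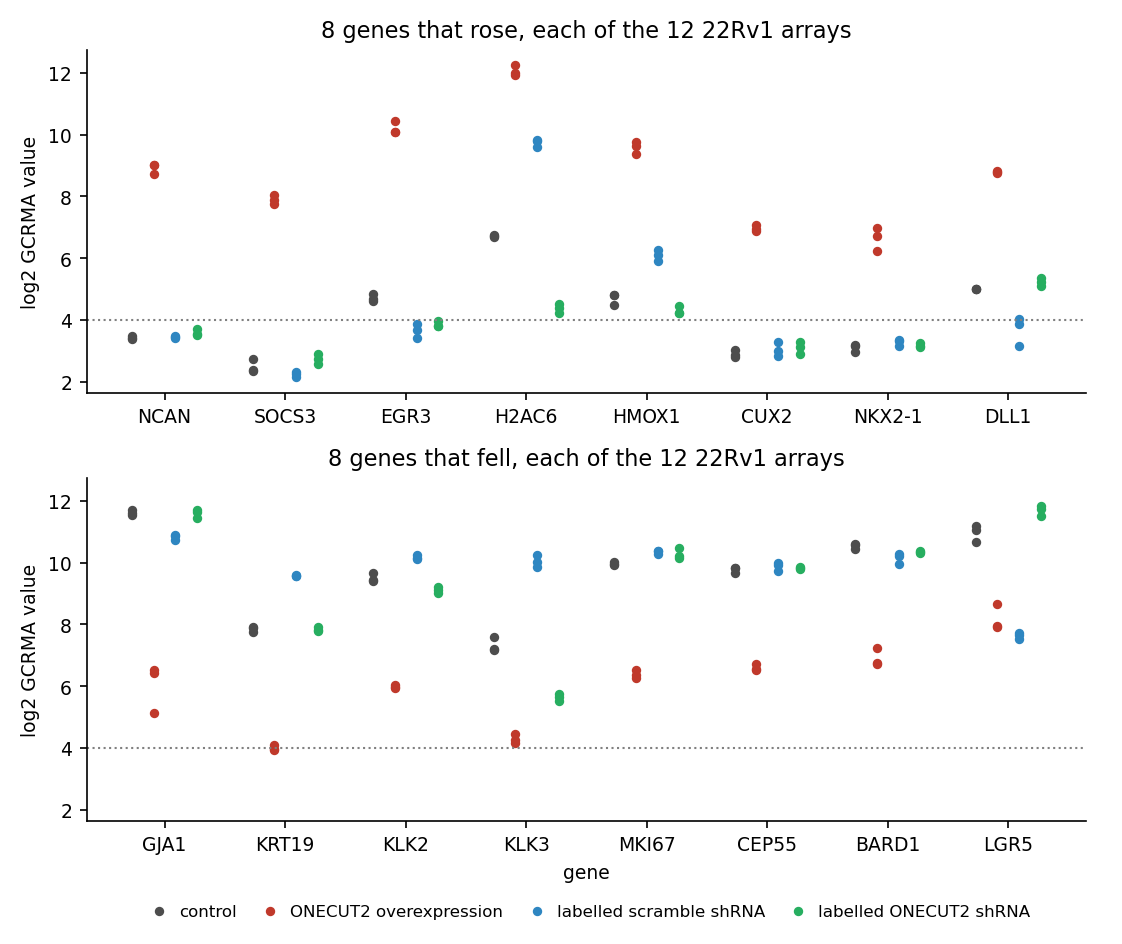
Log2 GCRMA values (vertical axis) of 16 genes (horizontal axis) on each of the 12 22Rv1 arrays, 8 genes that rose above and 8 that fell below. Points are arrays, colours are the 4 groups, and the dotted line marks the background value of 4. Control and overexpression arrays do not overlap for any of the 16, as for 76.7% of all genes tested, and genes among the largest changes were named on that condition. H2AC6, HMOX1, KLK3 and LGR5 also differ between the control and the arrays labelled scramble shRNA.

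Genes of cell division fell together, and the sequences upstream of some of them are shown first because they hold the short elements this class is known for. During mitosis, kinetochores join chromosomes to the spindle and a checkpoint delays division until each is attached. Many such genes are switched on late in the cycle through CCAAT boxes and an element with the core TTTGAA, while genes of DNA replication often carry E2F sites, of which TTCCCGC is one form. The promoters below run from 250 bases before to 50 bases after the gene start in RefSeq (GRCh38.p14), are written in the gene's direction and carry matches to any of these elements on either strand in capitals. The genes were chosen after their values were seen, as members with large falls whose promoters hold the motifs. CEP55, an organiser of the last step of cytokinesis (chr10:93496362-93496661, plus strand), has TTTGAA starting at -116 and -3, CCAAT at -102 and TTCCCGC at -185.
CEP55: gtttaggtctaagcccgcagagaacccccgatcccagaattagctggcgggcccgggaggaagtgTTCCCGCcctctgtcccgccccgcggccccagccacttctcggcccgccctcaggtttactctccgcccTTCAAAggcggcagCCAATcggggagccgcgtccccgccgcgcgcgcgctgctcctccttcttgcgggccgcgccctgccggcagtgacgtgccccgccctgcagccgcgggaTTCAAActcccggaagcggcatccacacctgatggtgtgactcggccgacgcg
HJURP, the chaperone that loads the centromeric histone (chr2:233854486-233854785, minus strand), has TTTGAA at -111 and CCAAT at -169, -139, -101 and -72.
HJURP: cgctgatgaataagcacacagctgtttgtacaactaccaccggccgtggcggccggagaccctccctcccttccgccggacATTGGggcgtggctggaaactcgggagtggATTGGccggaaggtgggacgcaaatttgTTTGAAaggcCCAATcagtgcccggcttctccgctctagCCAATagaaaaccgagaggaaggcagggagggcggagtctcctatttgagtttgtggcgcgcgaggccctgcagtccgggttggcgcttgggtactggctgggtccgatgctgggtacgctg
GINS2, a subunit of the replicative helicase complex (chr16:85688905-85689204, minus strand), has TTCCCGC at -31 and CCAAT at -158.
GINS2: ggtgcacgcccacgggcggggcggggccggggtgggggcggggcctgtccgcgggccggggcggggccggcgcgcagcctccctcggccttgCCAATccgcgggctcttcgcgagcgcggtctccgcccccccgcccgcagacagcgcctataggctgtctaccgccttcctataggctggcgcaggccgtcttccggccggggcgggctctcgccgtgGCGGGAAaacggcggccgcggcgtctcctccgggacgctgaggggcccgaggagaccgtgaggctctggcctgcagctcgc
LIG1, the ligase that joins replicated fragments (chr19:48170295-48170594, minus strand), has TTCCCGC at -113.
LIG1: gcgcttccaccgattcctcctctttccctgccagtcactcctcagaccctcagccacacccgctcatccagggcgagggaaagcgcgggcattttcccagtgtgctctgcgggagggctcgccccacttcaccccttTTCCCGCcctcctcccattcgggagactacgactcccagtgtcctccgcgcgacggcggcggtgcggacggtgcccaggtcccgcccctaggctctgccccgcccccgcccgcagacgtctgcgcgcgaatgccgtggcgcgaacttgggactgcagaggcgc

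All 30 tested genes of the kinetochore and spindle checkpoint list fell, 27 of them by 2-fold or more, against 29.7% and 9.14% of all genes. Their median log2 change was -2.31, and single genes ranged from -3.40 to -0.30. NDC80, which holds microtubules at the kinetochore, read 9.95, 9.83 and 9.95 in control and 7.26, 7.36 and 7.45 with overexpression. TTK, a checkpoint kinase, read 10.48, 10.53 and 10.52 and 7.60, 7.92 and 7.70. No overexpression array of either gene came near the controls (falls of 2.56 ± 0.09 and 2.77 ± 0.09). HJURP fell by 3.15 ± 0.12 (adjusted p = 8.90e-12). CENPN and CENPU, subunits of the inner kinetochore, fell by 2.27 ± 0.07 and 2.45 ± 0.08, and ZWINT, which sits between checkpoint and kinetochore, by 1.71 ± 0.05. Set against the arrays labelled scramble shRNA, a comparison that shares the overexpression arrays and in which 72.2% of all genes were called, all 30 fell as well, with a median of -2.34.

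Spindle motors and cytokinesis genes showed the same direction, with 30 of 31 called lower and a median of -2.22. CEP55 read 9.83, 9.66 and 9.82 in control and 6.51, 6.73 and 6.57 with overexpression, a fall of 8.96-fold (adjusted p = 6.58e-13). BIRC5, the chromosomal passenger survivin, fell 9.91-fold from 10.49, 10.57 and 10.76 to 7.40, 6.97 and 7.52. Neither gene's groups overlapped. TACC3, which stabilises spindle fibres, fell by 3.04 ± 0.12, ASPM, a spindle pole protein, by 3.02 ± 0.11, and AURKA, a mitotic kinase, by 1.76 ± 0.07. Of the 27 list members with a promoter in the table, 21 held TTTGAA (77.8%) and 22 held CCAAT (81.5%), against 9.69% and 37.0% of the 9977 tested genes with a promoter. In the kinetochore list 13 of 23 held TTTGAA (56.5%). Over all 27305 promoters of the table the shares were 15.4% and 35.7%, and these counts describe letters, not bound sites.

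Among cyclins, their kinases and the factors that drive the cycle, 26 of 34 fell and 5 were called higher (median -1.43). CCNA2, the cyclin of S and G2 phase, read 11.23, 11.20 and 11.30 in control and 8.44, 8.71 and 8.56 with overexpression. FOXM1, which drives late cell cycle genes, read 9.40, 9.54 and 9.43 and 6.55, 6.52 and 6.91. Their groups lay apart, with falls of 6.4-fold and 6.97-fold. CDK1, the mitotic kinase, fell by 2.27 ± 0.08, E2F7, a repressor of the E2F family, by 2.76 ± 0.10, and PTTG1, which guards the separation of sister chromatids, by 2.10 ± 0.08. MKI67, the proliferation antigen, which is not in this list, read 9.93, 10.01 and 9.94 in control and 6.27, 6.37 and 6.52 with overexpression (adjusted p = 3.68e-13). Of the 5 list members called higher, CCND3 (0.40 ± 0.10), CCNG2 (0.56 ± 0.09), CDK7 (0.72 ± 0.16) and CDK6 (1.26 ± 0.12) rose. CCND2 read 3.15, 3.25 and 3.16 in control and 3.68, 4.10 and 3.72 with overexpression, with both means under background and no measured change. CDK6 read by the mean of all its probe sets changed by 0.14 and was no longer called (adjusted p = 0.0721).

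The brakes of the cycle moved less uniformly. CDKN1C, an inhibitor of cyclin-dependent kinases, read 8.35, 8.15 and 8.12 in control and 10.02, 10.16 and 10.24 with overexpression, 3.82-fold higher with no overlap (adjusted p = 5.14e-10). CDKN2B rose 2.11-fold (adjusted p = 1.87e-06) and CDKN1A, the p21 inhibitor, 1.51-fold (adjusted p = 2.55e-04), while CDKN1B, the p27 inhibitor, differed by 0.01 ± 0.07 (adjusted p = 0.898). RBL1, a pocket protein that represses cell cycle genes, differed by -0.39 ± 0.20 (adjusted p = 0.0908), and was called lower without control replicate 2 (-0.57, adjusted p = 0.0213). CDKN3, a phosphatase whose own expression follows the cycle, fell 6.75-fold. Of the 10 tested genes of this list 4 rose and 2 fell.

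DNA replication genes fell for 43 of 46 members tested, with a median of -1.57 and 36 falls of 2-fold or more. MCM10, which helps to start replication forks, read 9.46, 9.66 and 9.53 in control and 6.09, 6.27 and 6.37 with overexpression. MCM2, of the replicative helicase, read 9.54, 9.61 and 9.61 and 7.04, 6.78 and 6.95. For both, the groups were separated by more than any spread within them (3.31 ± 0.11 and 2.66 ± 0.08). GINS2 fell by 2.83 ± 0.14 and LIG1 by 2.80 ± 0.12. CDC6, which loads the helicase, fell by 1.85 ± 0.06, GMNN, which blocks a second loading, by 1.47 ± 0.05, and RFC4, of the clamp loader, by 1.48 ± 0.05. TTCCCGC was found in 15 of the 41 replication promoters in the table (36.6%), in 10.5% of those of all tested genes and in 6.56% of the whole table.

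The supply and repair of DNA followed. In nucleotide synthesis 23 of 28 genes fell (median -0.84). TK1, thymidine kinase, read 9.64, 9.73 and 9.73 in control and 6.33, 6.68 and 6.58 with overexpression, 9.0-fold lower with no overlap. TYMS, which makes thymidylate, fell by 1.55 ± 0.06, RRM2, the ribonucleotide reductase subunit of S phase, by 1.96 ± 0.08, and PAICS, of purine synthesis, by 1.15 ± 0.06. In homologous recombination and Fanconi repair 17 of 18 were called lower (median -1.44), 2 of them with both means under background. Outside the list, BARD1, a ubiquitin ligase partner in break repair, read 10.60, 10.56 and 10.45 and 6.75, 6.71 and 7.22, 12.5-fold lower (adjusted p = 2.25e-12). Within the list, BRIP1, a helicase of the same pathway, fell 9.48-fold, EXO1, a nuclease, 8.03-fold, and FANCI, of the crosslink complex, 3.87-fold. In this list 9 of 17 promoters held TTCCCGC (52.9%).

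Cohesin and condensin subunits, which hold and compact chromosomes, fell for 15 of 19 genes (median -1.48). NCAPG read 10.65, 10.65 and 10.63 in control and 7.31, 7.26 and 7.31 with overexpression, 10.2-fold lower, and NCAPG2 fell 6.95-fold. SMC2 and SMC4, the condensin ATPases, fell by 2.63 ± 0.11 and 1.65 ± 0.08, and CDCA5, which stabilises cohesin, by 2.44 ± 0.10. Of 25 genes for chromatin assembly and DNA methylation 19 fell and 2 rose (median -0.88). ASF1B, a histone chaperone, fell by 2.82 ± 0.15, EZH2, the polycomb methyltransferase, by 1.77 ± 0.09 and HMGB2 by 1.57 ± 0.06. The nuclear lamins split: LMNB1 fell from 10.67, 10.80 and 10.68 to 8.18, 8.34 and 8.13, while LMNA rose from 7.07, 7.32 and 7.28 to 8.61, 9.19 and 8.83. Neither lamin's groups overlapped.

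Histone genes of the clusters went the opposite way. Of 42 on the array 19 were tested, of which 14 were called higher, 1 lower and 4 neither (median 1.61). Of the 14, 3 had means under background in both groups and so show no measured rise. H2BC21 read 7.39, 7.53 and 7.33 in control and 12.59, 12.54 and 12.59 with overexpression, 35.6-fold higher (adjusted p = 4.15e-13). H2AC6 rose by 5.35 ± 0.11 from 6.74, 6.71 and 6.69, H2BC5 rose by 3.13 ± 0.11, and H2BC12 by 2.02 ± 0.10. H4C11 was the one that fell, from 4.22, 4.16 and 4.27 to 3.90, 3.89 and 3.80, at the edge of background, and was not called when all 18 arrays shared 1 fit. The arrays labelled scramble shRNA read 9.79, 9.59 and 9.83 for H2AC6 and 10.27, 9.95 and 9.61 for H2BC21, between control and overexpression. Against them the list's median was 0.29, with 9 of 19 genes higher and 6 lower. TATAAA was found in 12 of the 19 promoters (63.2%) and CCAAT in 15 (78.9%), against 5.42% and 37.0% of all tested genes. These genes are near-identical copies, so probe sets may read several of them and the values of single members are uncertain. RNA was labelled from its 3' end, and how much of all histone RNA such labelling reads was not tested.

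**Figure D4:**
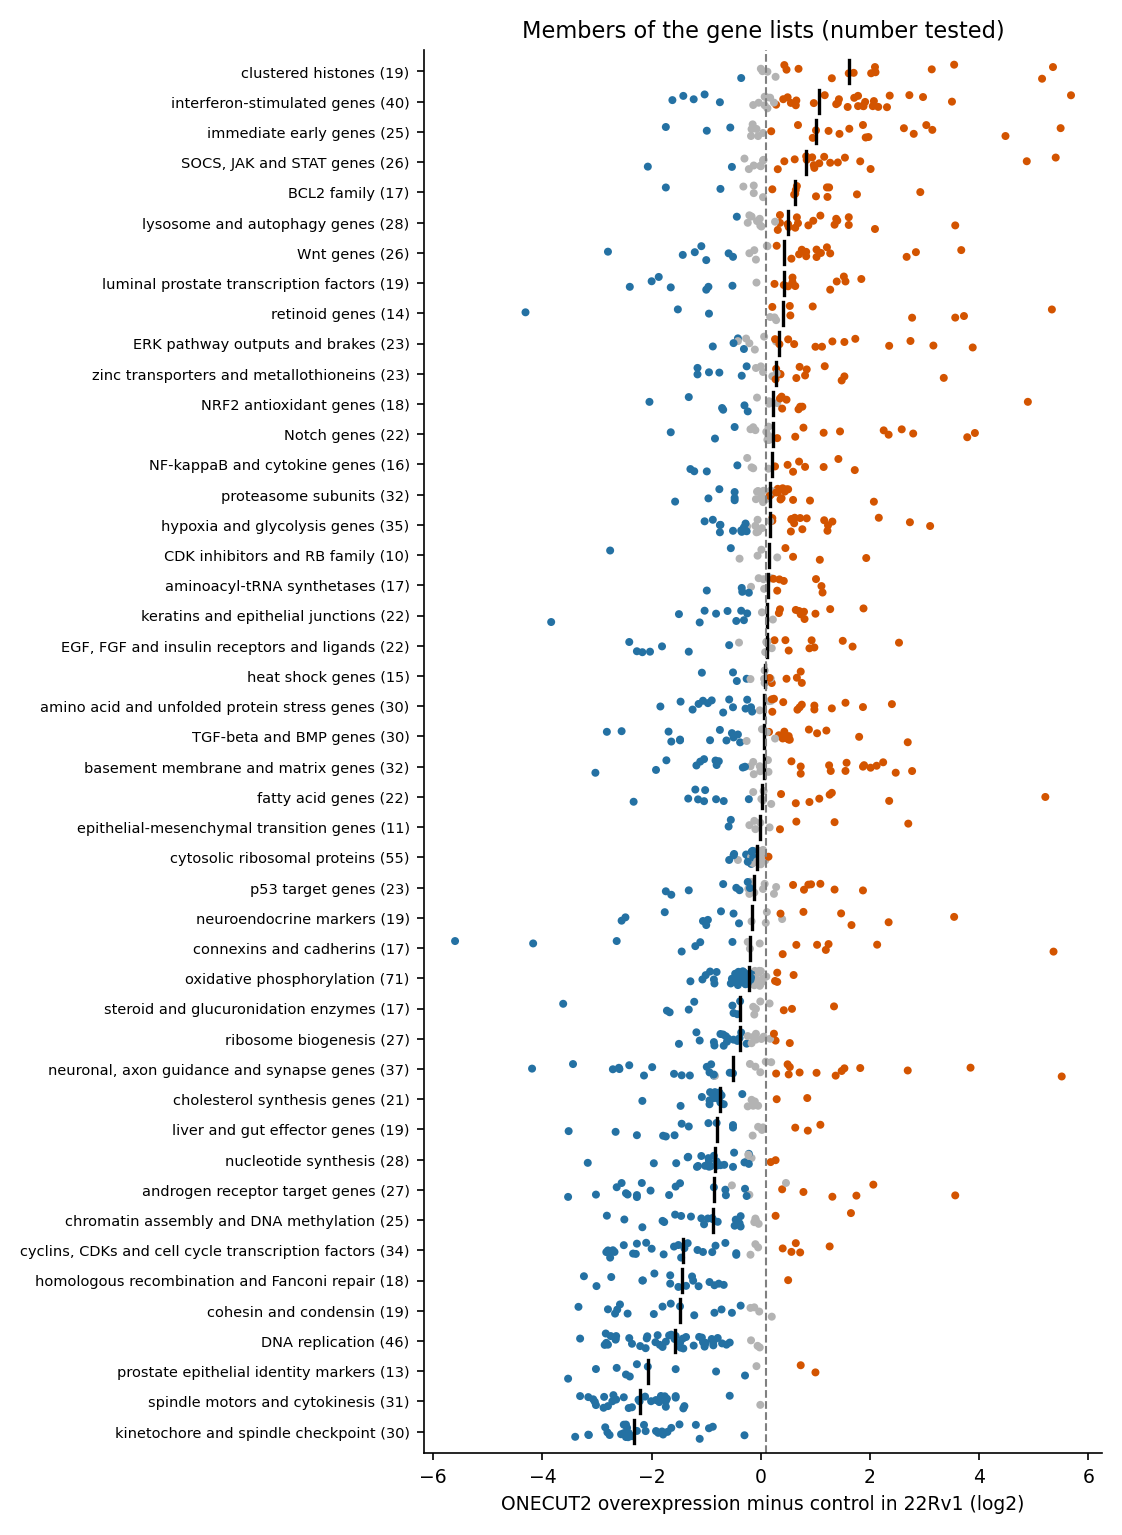
Log2 difference, overexpression minus control (horizontal axis), of each tested member of the gene lists with 10 or more tested members (rows, ordered by median, number tested in brackets). Orange points were called higher, blue lower and grey not called. Black bars are list medians and the dashed line is the median of all genes, 0.10. The kinetochore and spindle lists lie furthest to the left, with medians of -2.31 and -2.22, and histones, interferon-stimulated and immediate early genes have medians of 1.61, 1.07 and 1.01.

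Markers of prostate epithelial identity mostly fell, with 10 of 13 lower, 2 higher and a median of -2.07. KLK2, a kallikrein protease of prostate secretion, read 9.40, 9.66 and 9.45 in control and 5.96, 6.03 and 5.95 with overexpression, 11.5-fold lower (adjusted p = 3.37e-13). KLK3, prostate-specific antigen, read 7.59, 7.19 and 7.17 and 4.17, 4.25 and 4.45, 8.14-fold lower (adjusted p = 4.37e-11). Both had no overlap between the groups, but KLK3 also moved between the reference groups, with means of 10.04 on the arrays labelled scramble shRNA and 5.64 on those labelled ONECUT2 shRNA. ACP3, prostatic acid phosphatase, was at least 4.38-fold lower, and STEAP2, a metalloreductase of the prostate membrane, 4.83-fold lower. The epithelial markers KRT18, a simple keratin, and EPCAM, an adhesion molecule, rose instead, by 0.73 ± 0.07 and 1.00 ± 0.07. KRT8, another keratin of this list, named after its values were seen, fell by 0.82 ± 0.19 (limma adjusted p = 0.00104).

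Androgen receptor target genes overlap that list, and 18 of 27 fell while 6 rose (median -0.86). FKBP5, a chaperone partner of steroid receptors, read 12.28, 12.29 and 12.22 in control and 10.57, 10.66 and 10.51 with overexpression, 3.21-fold lower. STEAP1 fell 5.86-fold and PLPP1, a lipid phosphatase, 4.54-fold. Members also rose: TSC22D3, a glucocorticoid-responsive factor, was 4.18-fold higher, ALDH1A3, a retinal dehydrogenase, at least 9.04-fold higher and ABCC4, an efflux pump, 2.48-fold higher. For ALDH1A3 the controls read 3.82, 3.55 and 3.49 and the overexpression arrays 7.15, 7.23 and 7.15, and the groups did not overlap.

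The transcription factors of luminal cells were divided. SPDEF, an ETS factor of luminal cells, read 7.26, 7.45 and 7.57 in control and 4.90, 5.03 and 5.15 with overexpression, 5.28-fold lower, and EHF, another ETS factor, fell 3.99-fold. FOXA1, the pioneer factor that opens chromatin for the androgen receptor, read 12.14, 12.01 and 12.07 and 10.41, 9.94 and 10.24, 3.67-fold lower with no overlap (adjusted p = 1.99e-10). GATA2, a partner of the receptor, fell 1.99-fold and CREB3L4, of the secretory pathway, 3.15-fold. Against these, HOXC6 rose 3.58-fold, ELF3 2.87-fold, TFAP2C 2.94-fold and GATA3 2.61-fold. In total 11 of 19 rose and 7 fell, and the list's median of 0.42 turned to -0.15 when all probe sets of a gene were averaged.

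Keratins and junction genes were split evenly, 10 higher and 10 lower of 22. KRT19, a luminal keratin, read 7.74, 7.89 and 7.90 in control and 4.11, 3.96 and 3.93 with overexpression, of which 2 were under background (adjusted p = 1.95e-13). OCLN, of tight junctions, rose 3.69-fold, from 9.92, 9.85 and 9.68 to 11.71, 11.68 and 11.70. CDH1, E-cadherin, rose by 0.79 ± 0.05 and DSP, desmoplakin, by 0.80 ± 0.05, while CLDN4 fell by 1.50 ± 0.17 (1 overexpression array under background) and the plakophilins PKP2 and PKP3 by 1.12 ± 0.14 and 1.03 ± 0.12. Enzymes of steroid metabolism fell for 9 of 17. AKR1C3, which makes active androgens, read 8.51, 8.39 and 8.34 and 4.64, 4.86 and 4.88, 12.3-fold lower. AKR1C1 and AKR1C2 fell 3.29-fold and 2.33-fold, though these paralogs are so alike that their probe sets may read one another. Against the arrays labelled scramble shRNA the steroid list's median was -0.07 in place of -0.38.

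The list of cut homeobox and liver lineage factors had 7 tested genes of 16 on the array, 1 of them ONECUT2 itself, and all 7 were called. CUX2, another cut homeobox factor, read 2.86, 3.02 and 2.79 in control and 6.93, 7.06 and 6.87 with overexpression, at least 7.74-fold higher (adjusted p = 1.73e-12). SATB1, a chromatin organiser with cut-like domains, was at least 4.01-fold higher, with 6.41, 5.61 and 5.99 on the overexpression arrays. CUX1 fell by 0.47 ± 0.12. GATA6, of endoderm, rose 2.66-fold, CEBPA, of liver and fat, at least 2.48-fold, and HNF4G fell 3.12-fold. Against the arrays labelled scramble shRNA all 7 were called higher, and CUX1 and HNF4G turned to 0.28 and 0.42. The genes that such factors serve in liver and gut fell more often than they rose, 12 against 3 of 19. SPINK1, a trypsin inhibitor, read 10.05, 10.33 and 10.06 and 6.49, 6.87 and 6.52, 11.5-fold lower, and ALB, serum albumin, fell 3.47-fold. ALB had a mean of 12.75 in control, 10.96 with overexpression and 10.65 on the arrays labelled scramble shRNA, and APOH, an apolipoprotein, 6.15, 3.49 and 3.33. The list's median was -0.81 against control and -0.00 against the arrays labelled scramble shRNA, with 7 genes higher and 3 lower in the latter.

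Neuroendocrine markers, the genes of hormone-secreting nerve-like cells, did not move as one, with 6 of 19 higher and 9 lower. Against the arrays labelled scramble shRNA 7 were higher and 5 lower. NKX2-1, a lung and forebrain factor seen in small cell tumours, read 3.17, 3.20 and 2.95 in control and 6.97, 6.73 and 6.22 with overexpression, at least 6.25-fold higher (adjusted p = 2.69e-11). DLL3, a Notch ligand of such tumours, read 4.69, 5.62 and 4.79 and 7.25, 7.51 and 7.36, 5.08-fold higher with no overlap. ENO2, neuron-specific enolase, rose 3.17-fold and TUBB2B, a neural tubulin, 2.76-fold. CHGA, the granule protein chromogranin A, read 4.88, 5.14 and 5.05 and 6.53, 5.35 and 5.55, higher on all 3 overexpression arrays but led by 1 (0.78 ± 0.22, adjusted p = 0.00505). SRRM4, the neural splicing factor, fell from 7.97, 7.97 and 8.01 to 5.23, 5.45 and 5.62, CELF3, another neural RNA-binding protein, fell 5.57-fold, and CPE, a prohormone processing enzyme, 1.96-fold.

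Neuronal and synaptic genes fell for 18 and rose for 13 of 37 (median -0.51). L1CAM, a nerve cell adhesion molecule, read 4.76, 4.54 and 4.86 in control and 8.46, 8.71 and 8.51 with overexpression, 14.3-fold higher (adjusted p = 6.89e-13). NEFL, a neurofilament, was at least 4.75-fold higher and MAPT, the microtubule protein tau, 3.54-fold higher. EPHA3, an axon guidance receptor, read 11.11, 11.01 and 10.98 and 7.31, 7.88 and 7.58, 10.9-fold lower. SYT4, a vesicle calcium sensor, fell 6.55-fold, SEMA6A, a guidance ligand, 6.07-fold, NLGN1, of synapses, 6.03-fold, and EFNB2, an ephrin, 3.0-fold. GPM6A, a membrane glycoprotein of neurites, read 10.16, 9.84 and 10.30 in control, 5.65, 6.35 and 5.75 with overexpression and a mean of 7.67 on the arrays labelled scramble shRNA.

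Immediate early genes, which growth factors and stress switch on within minutes, rose for 16 of 25 and fell for 3 (median 1.01). FOS read 3.31, 3.56 and 3.46 in control and 8.22, 7.61 and 7.92 with overexpression, at least 15.1-fold higher (adjusted p = 2.16e-11). EGR1 read 8.94, 9.32 and 9.27 and 12.05, 12.07 and 11.80, EGR3 4.68, 4.84 and 4.61 and 10.08, 10.43 and 10.10, and in none of these did the groups overlap. MAFF rose by 3.14 ± 0.08 and IER3 by 3.03 ± 0.12, while ZFP36L2, which destabilises messages, fell by 1.74 ± 0.07 and BTG1 by 0.99 ± 0.06. Outputs and brakes of the ERK kinase pathway rose for 13 of 23 and fell for 4. ETV5, an ETS factor downstream of ERK, read 7.43, 7.66 and 7.63 and 10.75, 10.74 and 10.70, 8.91-fold higher. The phosphatases DUSP1, DUSP5 and DUSP6 rose 6.7-fold, 5.11-fold and 3.31-fold and DUSP2 fell 1.84-fold.

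Growth factors and their receptors changed in both directions. TGFA, a ligand of the EGF receptor, read 6.07, 5.56 and 6.04 in control and 9.64, 9.91 and 9.77 with overexpression, 14.7-fold higher (adjusted p = 4.22e-12). EGFR, its receptor, read 12.12, 12.13 and 12.31 and 10.04, 10.02 and 9.98, 4.51-fold lower (adjusted p = 1.29e-12). Ligand and receptor thus moved opposite ways, each with no overlap between groups. PDGFA rose at least 3.76-fold, IGF1R 2.82-fold, INSR 1.85-fold and FGFR1 1.98-fold. HGF, the ligand of MET, fell 4.83-fold, KITLG, the ligand of KIT, 5.31-fold, IRS1, the adaptor of insulin and IGF receptors, 4.09-fold, and IGFBP3, which binds IGF, 2.49-fold.

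Cytokine signalling genes of the SOCS, JAK and STAT families rose for 17 of 26 and fell for 2 (median 0.84). SOCS3, which blocks JAK kinases, read 2.37, 2.74 and 2.34 in control and 8.05, 7.87 and 7.75 with overexpression, at least 14.8-fold higher. SOCS2, which acts on growth hormone signals, read 4.82, 4.82 and 4.70 and 9.63, 9.81 and 9.51, 29.2-fold higher (adjusted p = 3.81e-13). STAT3, the factor downstream of interleukin-6 family receptors, rose from 8.50, 8.59 and 8.21 to 10.57, 10.19 and 10.56. None of these overlapped between groups. OSMR, a receptor of that family, rose 3.53-fold and PIM2, a kinase, 2.65-fold, while STAT6, the factor of interleukin-4 signals, fell 4.21-fold.

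Interferon-stimulated genes rose for 27 of 40 and fell for 5 (against 42.2% and 29.7% of all genes), with a median of 1.07. Such genes are known for a response element in which GAAA is repeated after a gap of 2 bases, and 22 of 33 promoters of the list held that core (66.7%), against 2.64% of tested genes and 3.65% of the whole table. 2 promoters with the core in capitals are shown, chosen after their values were seen. IFI6 (chr1:27672143-27672442, minus strand) has matches starting at -156, -115 and -93.
IFI6: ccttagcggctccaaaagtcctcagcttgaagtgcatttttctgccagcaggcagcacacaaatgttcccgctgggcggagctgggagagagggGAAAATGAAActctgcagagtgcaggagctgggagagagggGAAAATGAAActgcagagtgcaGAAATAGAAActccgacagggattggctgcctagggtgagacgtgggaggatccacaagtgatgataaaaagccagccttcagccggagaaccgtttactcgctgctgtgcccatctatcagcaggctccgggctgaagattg
IFIT3 (chr10:89327747-89328046, plus strand) has matches starting at -156 and -122, both on the opposite strand.
IFIT3: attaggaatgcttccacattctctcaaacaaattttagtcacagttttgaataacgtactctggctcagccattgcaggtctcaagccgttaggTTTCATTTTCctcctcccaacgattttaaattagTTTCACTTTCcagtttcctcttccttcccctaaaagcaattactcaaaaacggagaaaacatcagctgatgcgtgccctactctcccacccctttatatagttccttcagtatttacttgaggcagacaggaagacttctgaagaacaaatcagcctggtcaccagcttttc
IFI6, a mitochondrial protein, read 3.44, 3.91 and 3.63 in control and 9.49, 9.15 and 9.39 with overexpression, and IFIT3, which acts in the antiviral response, was at least 2.28-fold higher (adjusted p = 2.14e-07). IFI35 read 4.32, 4.62 and 4.06 and 7.31, 7.30 and 7.30, 7.83-fold higher, and ISG15, which is attached to proteins like ubiquitin, was 2.6-fold higher. Of the members that serve antigen display, HLA-B read 6.29, 6.49 and 7.14 and 10.25, 10.13 and 10.05, HLA-C rose 6.6-fold, and PSMB9, the inducible proteasome subunit, at least 3.63-fold. B2M, the shared subunit of class I molecules, named after its values were seen, differed by 0.12 ± 0.06 and was not called (adjusted p = 0.0723), though it was without control replicate 2 (0.17, adjusted p = 0.0200). HLA genes are alike in sequence, so their probe sets may not tell them apart. The members that fell were IFIH1, a sensor of double-stranded RNA (2.35-fold lower, but 0.35 in log2 against the arrays labelled scramble shRNA), PARP9 (3.07-fold), its partner DTX3L (1.68-fold), IFITM1 (2.04-fold) and OAS3 (at least 1.68-fold).

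NF-kappaB and cytokine genes showed no common direction, with 8 of 16 higher and 4 lower (median 0.20). RELA, the p65 subunit, rose 2.21-fold, TNFAIP2 3.28-fold and the chemokine CXCL16 2.67-fold. NFKB1, the p50 precursor, fell 2.33-fold, NFKBIA, the inhibitor, 2.44-fold and SOD2, a mitochondrial target, 1.98-fold. NFKBIA read 7.20, 7.66 and 7.46 in control and 6.36, 6.05 and 6.04 with overexpression. Its groups did not overlap, as for 76.7% of all genes.

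TGF-beta and BMP genes were called in equal number each way, 13 higher and 13 lower of 30. That is 43.3% each way, against 42.2% and 29.7% of all genes. TGFBR3, the co-receptor betaglycan, read 5.06, 5.16 and 4.84 in control and 7.82, 7.78 and 7.53 with overexpression, 6.45-fold higher. TGFB1, the ligand, rose 3.48-fold and SMAD3, its effector, 2.3-fold. BMP2, a BMP ligand, read 10.65, 10.93 and 10.97 and 8.02, 7.93 and 8.14, 7.05-fold lower, and the receptor BMPR1B fell 5.85-fold. ID1, ID3 and ID4, inhibitors of differentiation factors and known BMP targets, fell 3.22-fold, 2.78-fold and 2.8-fold, while ID2 differed by 0.11 ± 0.12 and was not called (adjusted p = 0.449) except with all its probe sets averaged (0.42). The receptors BMPR2 and ACVR1 rose by 1.03 ± 0.10 and 0.43 ± 0.13 (the latter not called when all 18 arrays shared 1 fit), and the BMP effectors SMAD1 and SMAD5 by 0.51 ± 0.11 and 0.40 ± 0.08, though with each gene read by its most variable probe set SMAD1 changed by -0.56 and SMAD5 by -0.09. ID2, ACVR1, SMAD1 and SMAD5 were named after their values were seen.

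Of Wnt genes 14 of 26 were called higher and 7 lower (median 0.43), of which 2 higher and 1 lower had both means under background. WNT5A, a ligand of the non-canonical branch, read 4.80, 4.17 and 5.28 in control and 8.34, 8.61 and 8.30 with overexpression, 12.7-fold higher, with a wide spread in control but no overlap. FZD7, a receptor, rose 6.37-fold, and the nuclear factors TCF7L1 and TCF7L2 rose 7.14-fold (1 control array under background) and 2.41-fold. LGR5, a receptor for R-spondin, read 11.05, 10.67 and 11.19 and 7.94, 8.65 and 7.93, 6.95-fold lower, RNF43, which removes Wnt receptors, was at least 1.7-fold lower, and DKK1, a secreted inhibitor, 2.0-fold lower. LGR5 read 7.67, 7.53 and 7.73 on the arrays labelled scramble shRNA, so against those arrays its difference was 0.53.

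Notch genes rose for 11 of 22 and fell for 3. The ligands JAG1 and DLL1 had the largest rises of the list. JAG1 read 3.41, 3.12 and 3.14 in control and 6.99, 7.17 and 7.26 with overexpression, and DLL1 4.99, 5.01 and 5.01 and 8.78, 8.77 and 8.81. In both genes the groups lay far apart against their spread, at least 8.81-fold and 13.7-fold higher. HEYL, a Notch target, rose 6.92-fold, DTX3 5.99-fold and DLK2 at least 3.02-fold, whereas the targets HES1 and NRARP fell 3.14-fold and 1.4-fold. Retinoid genes, which make, carry and break down retinoic acid, also held large changes in both directions. CYP26A1, an enzyme that degrades retinoic acid, read 2.59, 2.61 and 2.47 and 6.19, 6.20 and 6.44, at least 4.84-fold higher, and the related CYP26B1 was at least 20.9-fold higher. CRABP2, the binding protein, rose 6.83-fold, while the receptor RARB fell 2.86-fold. The dehydrogenases parted, ALDH1A3 rising as above and ALDH1A1 falling from 10.56, 10.76 and 10.65 to 5.96, 6.56 and 6.51.

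Cholesterol synthesis genes fell for 14 of 21 (median -0.74), among them ACAT2, from 11.03, 10.92 and 11.13 to 8.89, 8.68 and 8.98, INSIG1, a sterol sensor, by 0.94 ± 0.10, and STARD4, a sterol carrier, by 1.47 ± 0.09. Against the arrays labelled scramble shRNA that median was -0.39. Of fatty acid genes 8 rose and 9 fell of 22. FASN, fatty acid synthase, fell 2.3-fold, SCD, the main desaturase, 2.52-fold, ELOVL6 2.22-fold and ELOVL2 5.04-fold. SCD5, the second desaturase, rose from 3.68, 3.27 and 4.07 to 8.91, 8.87 and 8.86 (adjusted p = 3.83e-11), with 2 of the 3 control arrays under background. CPT1A, which brings fatty acids into mitochondria, rose 2.46-fold, PLIN2, a lipid droplet protein, 2.39-fold, and ACSL4 at least 4.07-fold. GPAT3, of triglyceride synthesis, read 4.10, 3.87 and 3.72 in control, 2 arrays under background, and 8.68, 8.59 and 8.55 with overexpression.

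Lysosome and autophagy genes rose for 19 of 28, with 1 lower (median 0.51). GABARAPL1, an autophagosome protein, read 5.22, 4.99 and 5.41 in control and 8.76, 8.69 and 8.86 with overexpression, 11.8-fold higher. MAP1LC3B, of the same family, rose 3.05-fold, PSAP, prosaposin, 3.05-fold and NPC2, a sterol carrier of lysosomes, 2.54-fold. Hypoxia and glycolysis genes rose for 17 of 35 and fell for 11 (48.6% and 31.4%, near the 42.2% and 29.7% of all genes). ADM, adrenomedullin, read 5.12, 4.95 and 5.18 and 8.34, 8.23 and 7.97, 8.56-fold higher, P4HA2, a collagen prolyl hydroxylase, rose 6.65-fold and KDM3A, a demethylase, 2.23-fold. The glycolytic enzymes were divided, ALDOC rising 4.46-fold, and ENO1, HK2, LDHA and PKM falling 1.43-fold, 1.67-fold, 1.24-fold and 2.04-fold.

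Stress pathways moved by member. HMOX1, heme oxygenase, read 4.82, 4.80 and 4.47 in control and 9.77, 9.38 and 9.62 with overexpression, 29.6-fold higher, and its mean on the arrays labelled scramble shRNA was 6.10. Of all 18 NRF2 antioxidant genes 8 rose and 6 fell (44.4% and 33.3%, near the 42.2% and 29.7% of all genes). GCLM, of glutathione synthesis, rose by 0.76 ± 0.10 and SRXN1, sulfiredoxin, by 0.69 ± 0.09, while PGD, of the pentose phosphate pathway, fell by 2.04 ± 0.19. In the amino acid and unfolded protein response 13 rose and 14 fell of 30 (43.3% and 46.7%, against 42.2% and 29.7% of all genes). The ATF4-linked genes SESN2, DDIT3 and TRIB3 rose 3.67-fold, 2.47-fold and 1.97-fold and CHAC1 at least 3.82-fold, while ATF5 fell 3.58-fold and the chaperones HSP90B1 and PDIA4 of the endoplasmic reticulum fell 2.77-fold and 2.09-fold. Of 15 heat shock genes 6 rose and 4 fell (40.0% and 26.7%, near the shares of all genes), and HSPA4L fell by 2-fold or more (-1.08 ± 0.10).

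Genes of p53 and cell death showed no single direction. Of 23 p53 target genes 7 rose and 8 fell (median -0.12), with TIGAR higher by 0.92 ± 0.10 and XPC by 0.79 ± 0.10, and BAX, GDF15 and PLK2 lower by 1.74 ± 0.21, 1.64 ± 0.15 and 1.32 ± 0.16. In the BCL2 family 11 of 17 rose and 2 fell. HRK, a protein that promotes cell death, read 3.31, 3.32 and 3.25 in control and 6.56, 5.69 and 6.38 with overexpression, at least 4.64-fold higher, BIK rose 3.39-fold and BID 2.37-fold, and PMAIP1 fell 1.67-fold. The median of 0.63 in that family turned to -0.07 when each gene was read by its most variable probe set.

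Zinc transporters and metallothioneins, of interest because prostate cells store zinc, rose for 12 of 23 and fell for 6. These are 52.2% and 26.1%, against 42.2% and 29.7% of all genes. SLC30A4, an exporter into vesicles, read 5.33, 5.26 and 5.08 in control and 8.41, 8.59 and 8.71 with overexpression, 10.2-fold higher. MTF1, the zinc-sensing factor, rose 2.88-fold, and the importers SLC39A8 and SLC39A10 fell 1.7-fold and 2.24-fold. Of 7 aryl hydrocarbon receptor genes CYP1A1 read 5.43, 5.51 and 5.09 and 7.74, 7.86 and 8.07, 5.84-fold higher, AHRR, the repressor, rose 2.87-fold and CYP1B1 2.34-fold, and AHR itself differed by -0.04 ± 0.15 (adjusted p = 0.839). CYP1A1 also read 8.25, 8.16 and 8.07 on the arrays labelled scramble shRNA, at the level of overexpression, which left a difference of -0.27. Of the 7 genes 4 rose against control, and 3 were higher and 2 lower against those arrays.

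Connexins include the gene with the largest fall of all those tested. GJA1, connexin 43 of gap junctions, read 11.71, 11.55 and 11.60 in control and 5.13, 6.41 and 6.51 with overexpression, and 1 overexpression array was lower than the other two (adjusted p = 3.48e-11). GJA3, connexin 46, read 4.52, 4.53 and 4.59 and 9.83, 10.04 and 9.83 (adjusted p = 2.60e-12). GJB2, connexin 26, fell 6.22-fold and GJB1, connexin 32, rose 2.05-fold. Among cadherins CDH3, P-cadherin, rose 4.38-fold, CDH2, N-cadherin, 1.57-fold and CDH6 fell by 4.17 ± 0.15 in log2. For both families together 7 of 17 rose and 7 fell (41.2% each, against 42.2% and 29.7% of all genes).

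Matrix genes were divided, 14 higher and 11 lower of 32 (median 0.06). Those shares, 43.8% and 34.4%, were near the 42.2% and 29.7% of all genes. NID1, a basement membrane linker, read 7.69, 7.65 and 8.40 in control and 10.52, 10.78 and 10.75 with overexpression, 6.83-fold higher, TIMP2, an inhibitor of matrix proteases, rose 4.72-fold and COL12A1 at least 2.1-fold. MMP16, a membrane protease, read 10.16, 9.98 and 10.17 and 6.78, 7.18 and 7.27, 8.17-fold lower, TNC, tenascin C, fell 3.78-fold and COL4A5 3.32-fold. Against the arrays labelled scramble shRNA TNC was higher, by 0.51. Among 11 tested genes of epithelial-mesenchymal transition 4 rose and 2 fell. ITGA5, the fibronectin receptor subunit, read 3.85, 3.88 and 4.08 and 6.83, 6.24 and 6.84, and SERPINE2 rose 2.55-fold. VIM, vimentin, differed by 0.16 ± 0.13 (adjusted p = 0.285) and FN1, fibronectin, by -0.01 ± 0.10 (adjusted p = 0.944), and their arrays overlapped between groups.

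Housekeeping machines differed in the size of their changes. Of 55 cytosolic ribosomal protein genes 41 were not called, 13 fell and 1 rose (median -0.07), and all changed by less than 2-fold. RPS9 fell by 0.49 ± 0.06 and RPL22L1, a paralog of RPL22, by 0.58 ± 0.09. Ribosome biogenesis genes fell for 16 of 27, with UTP20, of the small subunit processome, 2.84-fold lower and FBL, fibrillarin, 1.52-fold lower. Oxidative phosphorylation genes fell for 47 of 71 (median -0.22), of which 3 by 2-fold or more, among them ATP5F1D of the ATP synthase, from 10.77, 11.04 and 10.98 to 9.64, 9.75 and 9.54, and NDUFS1 of complex I, from 11.53, 11.55 and 11.65 to 10.58, 10.47 and 10.46. Their arrays did not overlap. Proteasome subunits rose for 14 and fell for 6 of 32, and aminoacyl-tRNA synthetases for 7 and 4 of 17. The shares that rose, 43.8% and 41.2%, were near the 42.2% of all genes. SARS1 was 2.19-fold and HARS1 2.01-fold higher and FARSB 1.98-fold lower. In the proteasome, PSMC3, an ATPase of its cap, fell by 1.57 ± 0.16. MRPS16, of the mitochondrial ribosome, fell from 8.34, 8.08 and 8.17 to 4.67, 4.88 and 4.42.

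Markers of other cells were mostly at background. Of 10 basal prostate markers 8 were on the array and 1 passed the filter, DST, of hemidesmosomes, whose difference of 0.35 ± 0.12 (adjusted p = 0.0164) was not called when all 18 arrays shared 1 fit (0.35, adjusted p = 0.668), without control replicate 3 (0.31, adjusted p = 0.0613) or without overexpression replicate 3 (0.26, adjusted p = 0.0866). Of 14 stromal markers 5 were tested: COL1A1 rose 4.35-fold, LUM, lumican, was at least 3.14-fold lower (5.64, 5.58 and 5.74 in control, 2.47, 2.46 and 2.31 with overexpression), COL3A1 was at least 1.29-fold lower, and ACTA2 and TAGLN, of smooth muscle, had means of 4.10 and 3.98 in control and 3.98 and 3.77 with overexpression, at background. Of 15 leukocyte and endothelial markers on the array 1 was tested, and it was not called.

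LNCaP cells with the ONECUT2 construct show how far these changes were shared, and their overexpression arrays varied more (median SD of a gene 0.295, against 0.097 with overexpression in 22Rv1). The 22Rv1 effect minus the LNCaP effect passed the test for 5432 genes (44.7%). Cell division genes fell in both lines, but less in 22Rv1: the kinetochore list had a median of -2.31 in 22Rv1 and -4.64 in LNCaP, and for 28 of 30 genes the difference between lines passed the test in that direction. Replication genes had medians of -1.57 and -2.43 (28 of 46 genes less reduced in 22Rv1 and 2 more). Androgen receptor target genes had medians of -0.86 and -2.35, with 17 of 27 genes differing and all of those less reduced or more raised in 22Rv1. Some of the 27 were at or near background in 22Rv1 control, such as TMPRSS2 (mean 3.78), TRPM8 (2.92) and STEAP4 (4.21). Others came close to it with overexpression, such as ACP3 (3.66), KLK3 (4.29) and KLK4 (4.38). A larger fall could not be read there, and the part of this limit in the difference between lines was not tested. The lists of p53 targets and oxidative phosphorylation differed the other way. p53 targets had a median of -0.12 in 22Rv1 and 1.57 in LNCaP, and 19 of 23 were lower in 22Rv1 relative to LNCaP. Oxidative phosphorylation had medians of -0.22 and 0.24, with 51 of 71 genes lower in 22Rv1 relative to LNCaP and 1 higher. Interferon-stimulated genes had medians of 1.07 and 1.03 in 22Rv1 and LNCaP, with 11 genes higher and 12 lower in 22Rv1 relative to LNCaP.

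**Figure D5:**
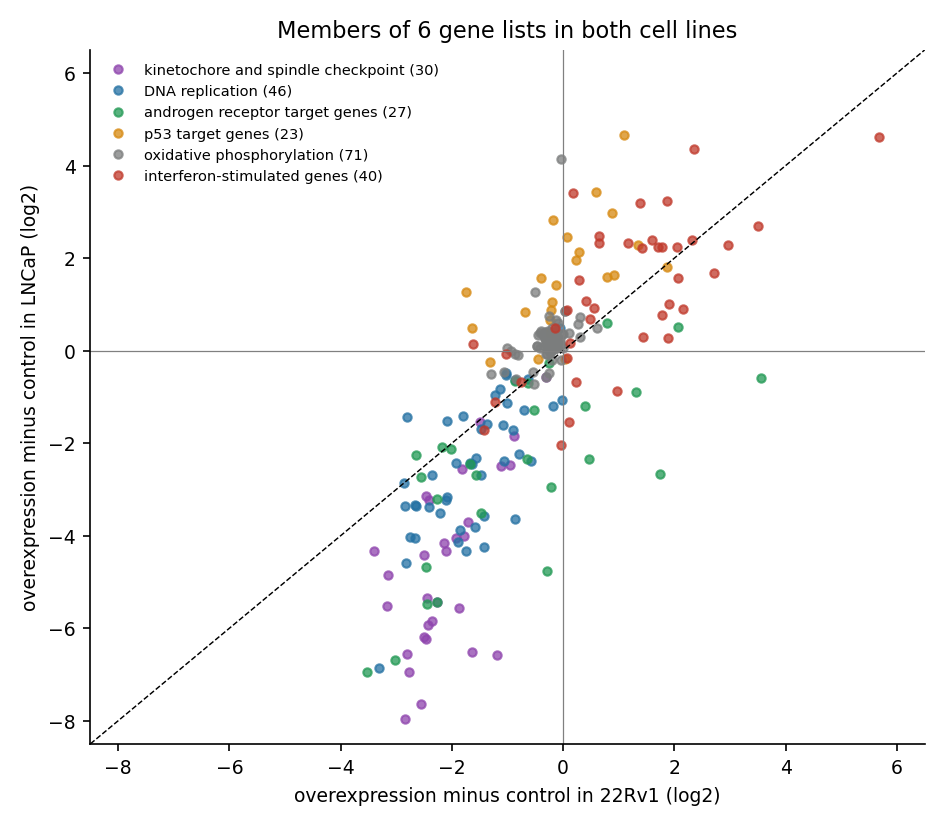
Log2 difference, overexpression minus control, in 22Rv1 (horizontal axis) and in LNCaP (vertical axis) for the tested members of 6 gene lists (points, number in brackets). The dashed line marks equal change in both lines. Kinetochore and replication genes lie mostly below the line at negative values (medians -2.31 and -4.64 for kinetochore genes in 22Rv1 and LNCaP), and p53 targets lie mostly above it.

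The cores that ONECUT factors bind were rare in these promoters. ATCGAT, on either strand, was found in 14 of 1468 promoters of genes higher by 2-fold or more (0.954%), in 13 of 924 of those lower by 2-fold or more (1.41%), in 0.822% of all tested genes and in 0.776% of the table. ATTGAT was found in 57 of 1468 (3.88%), 36 of 924 (3.90%), 3.19% of tested genes and 6.40% of the table. The window covers 300 bases around 1 start per gene, and no difference between these shares was tested.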

How the data were processed

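Total RNA of 22Rv1 and LNCaP cells was labelled from its 3' end and hybridised to Human Genome U133 Plus 2.0 arrays, 1 sample an array, per the labels' protocols. The authors deposited log2 values summarised by GCRMA per the submitters' processing notes, whose version is not given in the sources used here, and these were used as deposited, with no further scaling. GCRMA in its usual form corrects background from probe sequence and equalises the distributions of arrays, so levels near 3 carry little signal. Of 54675 probe sets 41091 had 1 gene symbol, 1801 had several and 11721 had none, besides 62 platform controls, and 41037 symbols were updated through a RefSeq gene table. Each gene was represented by whichever of its probe sets had the highest average across the 18 arrays.

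Overexpression and control were compared with limma 3.58.1 (R 4.3.3, statmod 1.5.0) in a fit with 4 group means over the 12 arrays of 22Rv1 (8 residual degrees of freedom), with trended and robust eBayes and Benjamini-Hochberg adjustment over all 12159 genes. Calls are at an adjusted p under 0.05. The difference between lines came from a fit over all 18 arrays. Comparisons with control and with the arrays labelled scramble shRNA share the overexpression arrays and are given side by side only. The script was tested on simulated data.

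Gene lists (51) are described by counts and medians, with no list test. Genes were named from ONECUT2, the 25 largest rises and falls whose groups do not overlap, up to 5 called genes each way per list by adjusted p and all members of lists with 12 or fewer tested genes, up to 12 genes each way that cross the background, and the 10 largest differences between lines. Some of these are given in counts only, and genes named outside this rule are said to be. Members and lists were chosen with earlier results of these data known. Promoters came from a RefSeq table (GRCh38.p14, 1 start per gene), which held 9977 of the tested genes. Alternatives concerned the arrays fitted, scaling, filter, probe set choice, moderation, array weights, a replicate block and leaving out each replicate. The precision is limited by 3 arrays a group.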

Additional observations from a re-analysis of the deposited data

Results flagged for a closer look

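The overexpression effect differed between 22Rv1 and LNCaP for 5432 of 12159 genes by limma's test of the difference itself (22Rv1 effect minus LNCaP effect, adjusted p under 0.05). GJA1 changed in 22Rv1 by -5.60 and changed by 0.29 in LNCaP, a difference of -5.89 ± 0.43 (adjusted p = 3.10e-08). RRM2 changed by -1.96 and -8.56, a difference of 6.59 ± 1.04 (adjusted p = 1.24e-04). TM4SF1, a membrane protein, was under background in both 22Rv1 groups and changed by -8.33 in LNCaP (7.91 ± 0.18). RUNX2, a bone factor, was likewise under background in 22Rv1 and changed by -5.99 in LNCaP (6.70 ± 0.36). MBD3L2 read 2.48, 2.29 and 2.46 in 22Rv1 control and 4.59, 4.68 and 4.21 with overexpression and changed by 10.67 in LNCaP (-8.58 ± 0.28), and FRG2EP, under background in 22Rv1, by 7.78 (-6.61 ± 0.95). ALDH5A1, an enzyme of GABA breakdown, changed by 0.35 in 22Rv1 and 7.19 in LNCaP (-6.84 ± 0.23). DHRS2 changed by -1.02 and 5.08 (-6.09 ± 0.47), TUBB6 by 0.99 and 6.82 (-5.83 ± 0.22), and PNMA2 by 1.68 and 7.20 (-5.52 ± 0.16). These are fitted values, and where a group lies under background its level has only an upper bound. Each gene was picked out by the test of the difference between lines, among genes whose 22Rv1 groups do not overlap.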

How the results depend on the processing

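Leaving out 1 array at a time left 8310 to 8405 genes called against control, 4833 to 4992 higher, 3372 to 3477 lower and 2902 to 2982 at 2-fold or more. It left 8271 to 8654 called against the arrays labelled scramble shRNA and 4868 to 7556 for the difference between lines. The ONECUT2 probe sets ranged from 0.93 to 1.25 (207676_at), 1.05 to 1.22 (230271_at), -0.11 to -0.02 (233441_at), -1.16 to -0.80 (233446_at) and 0.49 to 0.62 (239911_at), and the beta-actin difference from 3.65 to 4.33. Under the other settings 6635 to 9804 genes were called, with 7392 when all 18 arrays shared 1 fit. Averaging all probe sets of a gene left 1899 at 2-fold or more, and the middle beta-actin probe set in place of the 5' one gave a difference of 1.01. The cause of these shifts was not tested. Of the 309 genes named, a count without KRT8, 296 kept their call and direction in every setting that could be run for them. Of the exceptions SMAD1 and SMAD5 reversed, to -0.56 and -0.09, when each gene was read by its most variable probe set, and the others lost or gained a call. The named genes were chosen largely by size of change or adjusted p in the main fit, so the choice itself favours stable calls. The setting without probe sets ending in _s_at or _x_at could be run for 211 of the 309. Same-numbered control and overexpression arrays had deviations that correlated at -0.148, -0.217 and -0.043. These values give no sign of pairing by number, but with 3 arrays a group they cannot exclude it. With the replicate number as a block 8637 genes were called. Each group had 3 arrays of unknown separateness, the control probe sets for RNA integrity differed between groups, and levels under 4 have no order.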
